A study of Atriplex prostrata and Atriplex rosea and Atriplex prostrata x Atriplex rosea with 87 samples.

Results

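The genes described here are the mitochondrial substrate carriers, inner-membrane proteins that move metabolites between an organelle and the cytosol. They were taken as every locus of the deposited count table whose description names that family, leaving out the carrier BOU (AT5G46800), which the same rule sets aside together with 3 dicarboxylate carriers that carry other descriptions. The rule gave 32 of 21971 loci. AT1G07025 had no count in any library, so 31 members were tested and a statement on 31 members never covers it.

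Mitochondrial carriers are built from repeats of a pair of membrane helices, and most exchange one small molecule for another. Their substrates include organic acids, amino acids, nucleotides, phosphate, coenzymes and metals, and some members work in plastids or peroxisomes. In leaves they link respiration, photorespiration and, in plants whose C4 cycle releases carbon dioxide inside mitochondria, the C4 cycle with the rest of the cell.

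The study followed leaf growth in Atriplex prostrata, which uses C3 photosynthesis, and Atriplex rosea, which uses C4 photosynthesis, by RNA sequencing. Growth chambers ran at 27 °C in the light and 22 °C in the dark for both species, with days of 17 h at about 500 µmol m-2 s-1, and leaves were taken 2 h into the day. Stages were matched between species by the leaf plastochron index, an age scale computed from leaf lengths. Leaves of 1 mm (index -1.3), 5 mm (index -0.7) and 7.5 mm (index -0.35, leaf 9 and leaf 10 taken separately) were used whole. Longer leaves were sampled as separate bottom and top parts, at 15 mm in prostrata and 11 mm in rosea (index 0.3) and at 18 mm in prostrata and 13 mm in rosea (index 0.8). This gives 8 stages per species with 3 libraries each, 48 in all. Neither the F1 hybrids nor the leaves at index 1.5 were analysed here. Labels call the 3 libraries of a group biological replicates without naming plants, so p-values reflect library-to-library spread, some of which may be technical.

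Totals ran from 8028511 to 12387428 counts in prostrata and from 7647689 to 15360702 in rosea. Reads of both species were assigned to Arabidopsis thaliana loci, so a low count in 1 species can also mean that its reads resemble the Arabidopsis locus less, and reads of 1 Atriplex gene can be divided between related loci. Levels are given as CPM, counts per 1000000 of the TMM-corrected library total, and are never compared between loci because the table holds no lengths. In bulk leaf RNA, fewer cells of a type and less RNA per cell cannot be told apart. Among markers of tissues, the leaf genes RBCS1A and RCA together reached 2630 to 2930 CPM at 1 mm in prostrata and 3080 to 4090 CPM in rosea, and 34100 to 93600 and 13000 to 27300 CPM at index 0.8, so the libraries are leaf tissue by these genes. In prostrata, library 1 of the 15 mm bottom part and library 1 of the 15 mm top part differed by a chi-square of 1.14 per degree of freedom, against a median of 15.2 and a lowest value of 1.2 between libraries of 1 group. Although their labels name different leaf parts, these libraries stood closer together than replicates did. Without both, the species difference over stages was 3.06 for AT1G14140, 1.15 for AT5G01340, -1.09 for AT1G14560 and -4.56 for AT1G79900, and the counts of members called over stages and in the bottom part at index 0.3 were the same as with them. Where leaving them out changed a count or call described below, the value is given there or with the other alternatives after the results. The lowest value of 1.2 came from prostrata 1 mm libraries 1 and 2, and the other pairs of that group gave 1.93 and 2.18. Rosea 1 mm pairs gave 3.53 to 7.28. Every prostrata age change starts from that prostrata group, and whether its libraries are technical repeats was not tested.

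The deposited table gives a functional summary for 13 of the members and none for 19. Summarised members comprise the dicarboxylate and tricarboxylate carrier AT5G19760, both exporters of ornithine and related basic amino acids (AT1G79900 and AT2G33820), a pair of coenzyme A carriers (AT1G14560 and AT4G26180), a pair of thiamin diphosphate carriers (AT3G21390 and AT5G48970) and a pair of calcium-binding ATP-Mg/phosphate carriers (AT5G07320 and AT5G51050). They also comprise the peroxisomal NAD carrier PMP38 (AT2G39970), the plastid nucleotide exporter AT4G32400, a predicted S-adenosylmethionine carrier (AT2G35800) and a chloroplast protein resembling animal mitoferrin (AT5G42130). For the others the table names only the closest Arabidopsis protein. That protein is uncoupling protein 2 for AT1G14140 and ADP/ATP carrier 1 for AT5G56450, while AT5G01340 is closest to another member without a summary. In 6 pairs, 12 members in all, each locus is the closest protein of the other.

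Averaged over the 8 matched stages, the family held both the strongly rosea-biased AT1G14140 and the strongly prostrata-biased ornithine exporter AT1G79900, while most members differed less than 2-fold between species. A locus was called when the Benjamini-Hochberg adjusted p of edgeR's quasi-likelihood test was under 0.05 and the log2 fold change was at least 1 in size, that is, at least 2-fold. By this rule 2 of the 31 members were higher in rosea, 6.45%, against 9.61% of all loci tested, and 2 were lower, against 10.3% of all loci. The members' median log2 difference was 0.24, and that of all loci was -0.02. Without the fold threshold 25 members passed, 18 higher and 7 lower in rosea, a share to be read against the 80.7% of all loci that passed. Libraries of the species did not overlap at all for 6 members (AT1G14140, AT1G14560, AT1G78180, AT1G79900, AT2G33820 and AT5G07320), whereas this held for 8.89% of all loci.

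**Figure D1:**
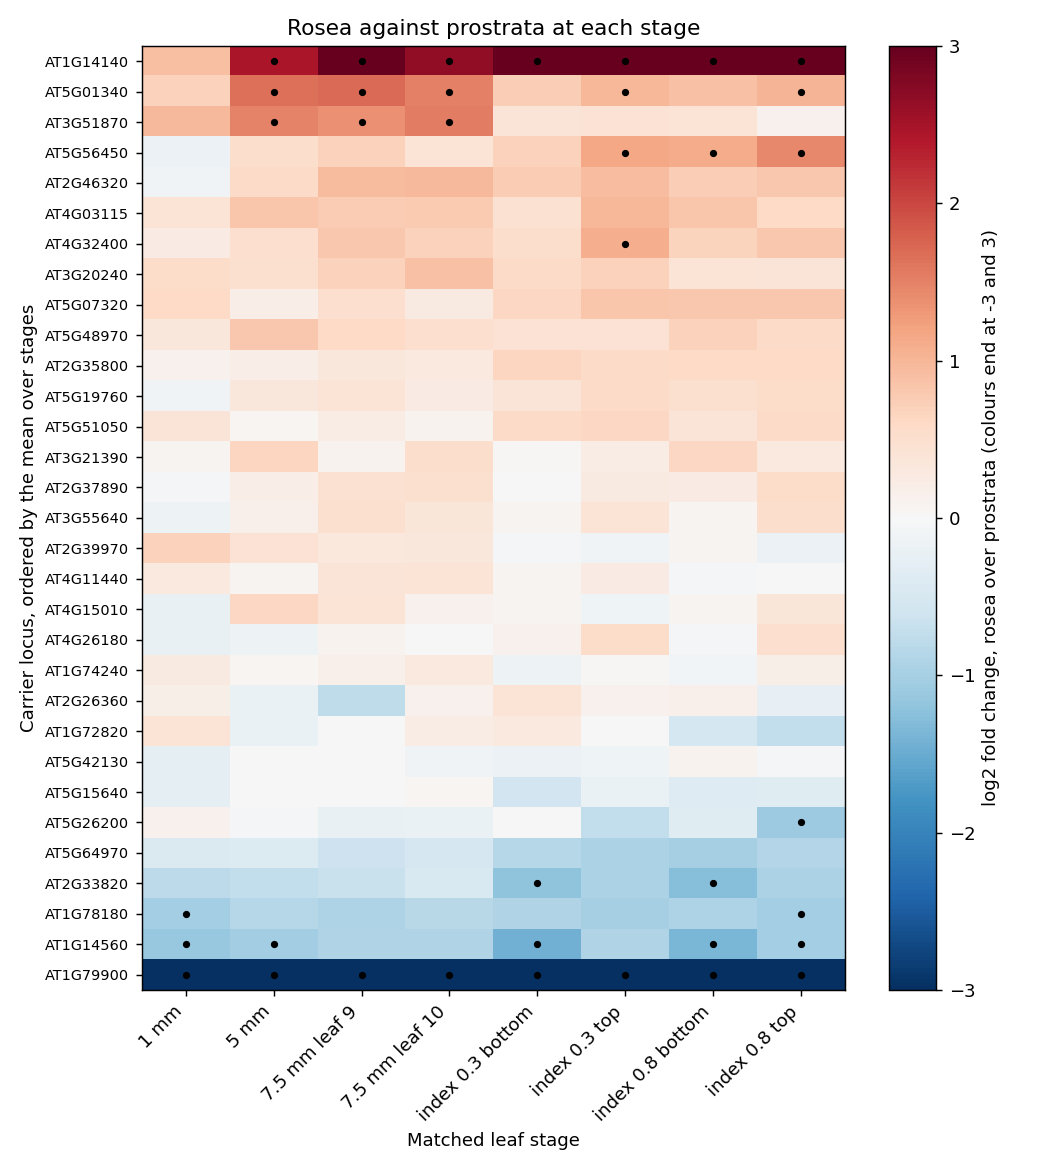
Log2 fold change of rosea over prostrata for the 31 tested carrier loci (rows, ordered by their mean over stages) at the 8 matched stages (columns), with a black dot where a difference was called. AT1G14140 is dark red from 5 mm on, between 2.46 and 4.24, and AT1G79900 is dark blue at every stage, between -5.25 and -3.29.

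AT1G14140, whose closest described relative is an uncoupling protein, was the most rosea-biased member. In prostrata its level stayed low in all 24 libraries, from 4.36 to 9.70 CPM with a median of 6.03. In rosea it stood at 10.1, 10.5 and 14.6 CPM at 1 mm and at 32.6, 35.2 and 37.4 CPM at 5 mm. Rosea leaf 9 gave 40.0, 53.0 and 30.7 CPM, and leaf 10 gave 24.7, 52.9 and 21.4 CPM. Thus 1 leaf 10 library held a higher value than the other two, a difference that was not tested. Later the bottom part held 70.5, 86.4 and 73.0 CPM at index 0.3, and 110, 66.8 and 119 CPM at index 0.8. Top parts held 133, 106 and 90.0 CPM at index 0.3 and 129, 171 and 114 CPM at index 0.8. Every rosea library exceeded every prostrata library. Over stages the log2 difference was 3.05 (SE 0.10), or 8.26-fold, with an edgeR adjusted p of 4.35e-27 (means 6.53 ± 1.43 and 68.0 ± 45.1 CPM, SD over 24 libraries per species). At 1 mm the difference was 0.91 (SE 0.27) and fell short of the fold threshold, and it was called at the other 7 stages. Uncoupling protein 2 (AT5G58970), its closest protein, averaged 10.5 CPM in prostrata and 31.5 CPM in rosea. Division of reads between AT1G14140 and the uncoupling proteins was not tested.

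AT5G01340, a carrier with no substrate given in the table, was also higher in rosea over stages, by 1.15 (SE 0.07) on the log2 scale, with an edgeR adjusted p of 2.20e-17. Prostrata libraries of 1 to 7.5 mm lay between 23.2 and 39.8 CPM, and those of the later stages between 49.9 and 110 CPM. In rosea the level was already 76.8, 93.5 and 88.4 CPM at 5 mm, up from 45.4, 44.0 and 49.7 CPM at 1 mm. It ended at 178, 176 and 164 CPM in the top part at index 0.8. At 5 mm the log2 difference between species was 1.65, at both 7.5 mm stages 1.71 and 1.52, and at index 0.3 in the bottom part 0.73. The values of the species difference were thus higher at 5 and 7.5 mm than at 1 mm or in longer leaves, and that stage pattern was not tested.

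AT3G51870, closest to a thylakoid ATP/ADP carrier, showed a similar order of values. Over stages it stood at 0.84 (SE 0.06), under the fold threshold. At 5 mm it was called, with 18.0, 20.6 and 18.5 CPM in prostrata against 56.5, 48.2 and 54.8 CPM in rosea. By the top part at index 0.8 the groups overlapped, at 27.3, 31.2 and 27.7 CPM and 26.3, 33.3 and 34.7 CPM.

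**Figure D2:**
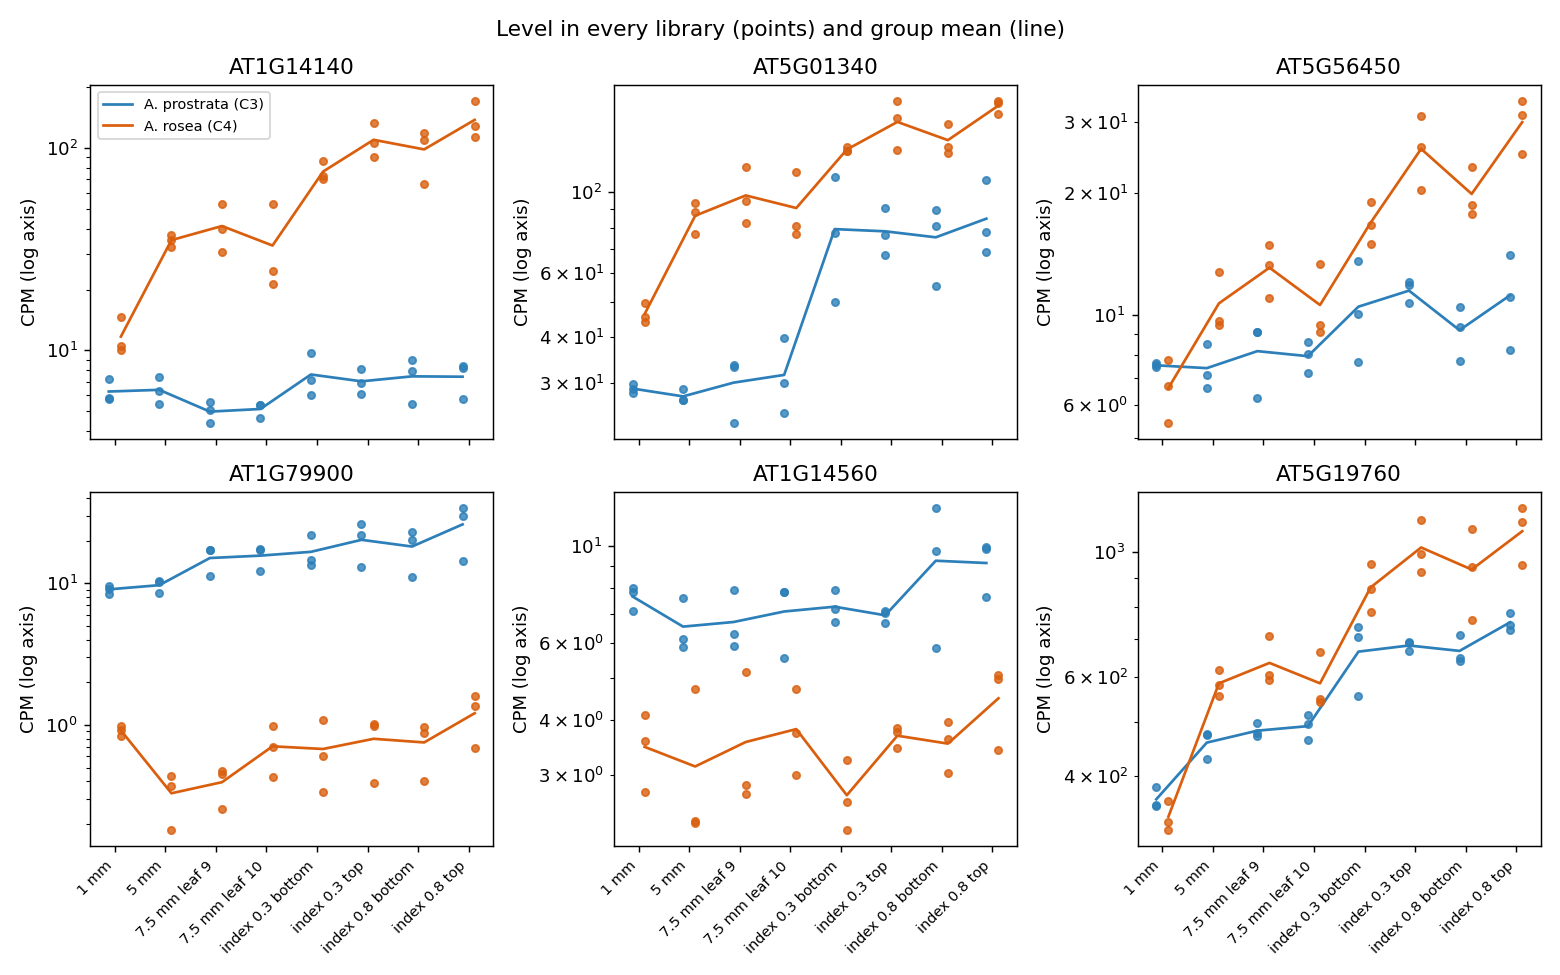
CPM on a log axis for 6 carrier loci at the 8 matched stages, with each library as a point and the mean of its 3 libraries joined by a line, prostrata in blue and rosea in orange. AT1G14140 climbs in rosea from a mean of 11.7 to 138 CPM and stays between 4.98 and 7.60 CPM in prostrata, while AT1G79900 stays under 2 CPM in every rosea library.

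AT1G79900 (BAC2), which exports ornithine from mitochondria in Arabidopsis, was the member most biased to prostrata. Prostrata libraries ranged from 8.42 to 34.2 CPM with a median of 14.5, and rosea libraries from 0.181 to 1.60 CPM with a median of 0.694. No library of one species reached the range of the other. Over stages the log2 difference was -4.52 (SE 0.14), 23.0-fold, with an edgeR adjusted p of 2.08e-27. It was the 1 member called lower at all 8 stages, as were 3.54% of all loci, and 0 members were called higher at all 8, against 3.68% of all loci. Depth limits the rosea side, since the 3 libraries of a rosea stage held only 10 to 34 counts together.

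Its functional partner AT2G33820 (MBAC1), also an ornithine exporter, was lower in rosea too. Over stages the log2 difference was -0.88 (SE 0.06), under the fold threshold. AT2G33820 was called lower in the bottom part at index 0.3 (-1.20), a call lost without prostrata 15 mm bottom library 3. It was also called in the bottom part at index 0.8, where it stood between -1.43 and -1.15 and kept the call when single libraries were left out. Its libraries ran from 15.6 to 31.6 CPM in prostrata and from 7.62 to 15.5 CPM in rosea, without overlap. With the counts of both ornithine exporters summed, which removes any division of reads between them, the log2 difference was -1.63 (SE 0.06, edgeR adjusted p = 1.99e-24). Since both loci were lower in rosea, their sum had to be lower too, and its direction adds nothing. Rosea counts in the sum came mostly from AT2G33820, 2733 against 175 from AT1G79900. BOU, the closest protein of both, was not in the sum, and division of reads with it was not tested.

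For the coenzyme A carriers the outcome depended on which locus was read. AT1G14560 was lower in rosea by 1.09 (SE 0.09, edgeR adjusted p = 2.67e-14), with 5.56 to 12.2 CPM in prostrata and 2.25 to 5.15 CPM in rosea. AT4G26180 showed 0.11 (SE 0.09, adjusted p = 0.249), with a 95% interval of -0.07 to 0.29. Summed, the pair differed by -0.31 (SE 0.08, adjusted p = 4.03e-04), which is not a call. How reads of the Atriplex genes were divided between these loci was not tested.

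A second close pair, AT1G78180 and AT5G64970, both without a functional summary, was lower in rosea in every stage mean. AT1G78180 held 34.0 to 50.6 CPM in prostrata and 14.9 to 28.3 CPM in rosea, a log2 difference of -0.94 (SE 0.04, edgeR adjusted p = 1.06e-23). AT5G64970 differed by -0.70 (SE 0.04). Neither reached the fold threshold over stages, though AT1G78180 was just past it at 1 mm (-1.02) and in the top part at index 0.8 (-1.03). Both calls were lost without single libraries: prostrata 1 mm library 1 or rosea 1 mm library 2 for the first (down to -0.92), and prostrata 18 mm top library 2 or rosea 13 mm top library 3 for the second (down to -0.97).

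Of the other carriers with a substrate or relative given in the table, several stood higher in rosea by small amounts. On the log2 scale the ATP-Mg/phosphate carriers stood at 0.58 (AT5G07320) and 0.36 (AT5G51050), and the thiamin diphosphate carriers at 0.55 (AT5G48970) and 0.32 (AT3G21390). The plastid nucleotide exporter AT4G32400 and its closest relative AT3G20240 stood at 0.67 and 0.59. Adjusted p-values of these 6 loci were under 0.05 without the fold threshold, and none of the 6 was called over stages. AT4G32400 was called higher in rosea in the top part at index 0.3 (1.10), and with library totals it stood at 0.95 there. AT5G07320 separated the species in all libraries, with 10.7 to 18.7 CPM in prostrata and 19.0 to 27.5 CPM in rosea. The predicted S-adenosylmethionine carrier AT2G35800 held 63.0 to 116 CPM in prostrata and 83.5 to 171 CPM in rosea, a log2 difference of 0.42 (SE 0.04). Elsewhere in the family AT4G03115 (closest to an uncoupling protein) stood at 0.70 and AT2G46320 (closest to a manganese tracking factor) at 0.71. AT5G56450 stood at 0.73 (SE 0.07), under the fold threshold. It was called higher in rosea in the top part at index 0.3 (1.15) and in the bottom (1.12) and top part (1.44) at index 0.8. With library totals the calls in the index 0.3 top and the index 0.8 bottom were lost. PMP38 stood at 0.19 and AT5G42130, the mitoferrin-like protein, at -0.08. The members without a functional summary not yet named over stages (AT1G72820, AT1G74240, AT2G26360, AT2G37890, AT3G55640, AT4G11440, AT4G15010, AT5G15640 and AT5G26200) lay between -0.32 and 0.27.

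By stage, 0 members were called higher in rosea at 1 mm, where 8.49% of all loci were, and 3 were called lower, where 7.90% were. In the top part at index 0.8, 3 were higher and 4 lower, against 11.7% and 13.6% of all loci. In between, 5 members were called at 5 mm, 4 in leaf 9 and 4 in leaf 10, against 20.3%, 21.6% and 19.7% of all loci in either direction. At index 0.3 there were 4 in the bottom and 5 in the top part (23.5% and 21.9% of all loci), and at index 0.8 there were 5 in the bottom part (24.8%). Without the near-identical 15 mm libraries, 3 members instead of 1 were lower in rosea in the index 0.3 top part, and 3 instead of 4 were higher. AT5G01340 then stood at 0.96 there, under the fold threshold, against 1.0 with all libraries. Its call at this stage was also lost in 26 of 48 fits that left out 1 library. Counting both directions, the share of members called was below that of all loci at each of the 8 stages. Each stage reads the same 31 members, and the gap was small in places, as in the index 0.8 top with 22.6% against 25.4%. Whether the shares differ was not tested. Of the 31 members, 10 were called at 1 stage or more and 21 at none.

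Change with leaf age was measured as index 0.8, the mean of bottom and top part, against 1 mm leaves. In rosea the organic acid carrier AT5G19760, AT1G14140, AT5G01340 and AT5G56450 rose with age. AT1G72820 and AT5G26200, a close pair without a functional summary, fell in both species. In prostrata 3 members rose by the call rule, 9.68% of the 31, against 15.2% of all loci, and 2 fell, 6.45%, against 8.28%. In rosea 8 rose, 25.8% of the members, against 15.0% of all loci, and 2 fell, 6.45%, against 10.3%. Whether the members as a list differ from other loci was not tested. The members' median log2 change was 0.26 in prostrata and 0.49 in rosea, beside -0.03 and -0.07 over all loci. These directions depend on the scaling. With plain library totals in place of TMM, the median over all loci moved to -0.58 in prostrata and -0.75 in rosea, and the members' median to -0.29 and -0.18. Members then split into 0 rising and 4 falling in prostrata and 3 rising and 7 falling in rosea. Among all loci called, the rising share moved from 64.7% to 23.0% in prostrata and from 59.3% to 17.0% in rosea. AT1G14140, AT5G01340 and AT5G56450 in rosea, and AT1G72820 and AT5G26200 in both species, were called in the same direction under both scalings.

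AT5G19760, which carries malate, oxaloacetate, oxoglutarate and citrate among others, drew the most counts of any member, a number that also depends on gene length. At 1 mm the species overlapped, at 354, 356 and 383 CPM in prostrata and 321, 332 and 362 CPM in rosea. In the top part at index 0.8 it reached 781, 744 and 728 CPM in prostrata and 950, 1200 and 1130 CPM in rosea, where the groups no longer overlapped. The log2 age change was 1.58 (SE 0.11) in rosea, a call, and 0.96 (SE 0.11) in prostrata, just under the fold threshold, and with library totals the rosea value was 0.88. The rosea change exceeded the prostrata change by 0.62 (SE 0.15, edgeR adjusted p = 0.00202), which is not a call by size.

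AT5G01340 rose in both species, by 1.46 (SE 0.19) in prostrata and 1.74 (SE 0.19) in rosea, and the difference between these changes was 0.28 with a 95% interval of -0.23 to 0.79. With library totals its prostrata value was 0.90, under the fold threshold. In prostrata AT3G51870 rose by 1.28 (SE 0.15) and AT1G79900 by 1.26 (SE 0.24), and with library totals each stood at 0.73. With both ornithine exporters summed the prostrata change was 0.49 (SE 0.14, edgeR adjusted p = 0.00392), which is not a call. AT1G79900 in rosea changed by 0.02, with a 95% interval of -0.90 to 0.94.

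AT5G56450, closest to the ADP/ATP carriers, rose in rosea by 1.87 (SE 0.18, edgeR adjusted p = 3.43e-11). Its rosea libraries held 5.42, 6.68 and 7.76 CPM at 1 mm and 24.9, 33.7 and 31.2 CPM in the top part at index 0.8. In prostrata the same groups held 7.44, 7.61 and 7.53 CPM and 14.1, 11.1 and 8.19 CPM, a log2 change of 0.42 (SE 0.18) averaged with the bottom part. The species overlapped at 1 mm, and in the top part at index 0.8 every rosea library was above every prostrata one.

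The remaining members that rose in rosea lay close to the fold threshold. AT2G37890 changed by 1.11, AT4G26180 by 1.08, AT3G55640 by 1.06 and AT5G42130 by 1.01, and with library totals these 4 stood at 0.32 to 0.44. Leaving out rosea 13 mm top library 1 put AT3G55640 at 0.97, AT4G26180 was lost without rosea 1 mm library 2 or 3 or 13 mm top library 1 (down to 0.93) and when summed with AT1G14560 (0.83), and AT5G42130 without rosea 1 mm library 1 or 13 mm top library 2 (down to 0.94).

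AT1G72820 fell from 30.0, 24.3 and 27.6 CPM at 1 mm in rosea to 3.61, 6.27 and 6.67 CPM in the top part at index 0.8. In prostrata it went from 20.9, 20.7 and 20.0 CPM to 12.4, 8.46 and 7.51 CPM. The log2 changes were -2.08 (SE 0.15) and -1.03 (SE 0.15), and the prostrata value lay at the threshold, since it stood between -1.11 and -0.93 when single libraries were left out, with the call lost in 24 of 48 fits. Without both near-identical 15 mm libraries it fell just short of the fold threshold. AT5G26200 held 8.45, 5.61 and 8.15 CPM in rosea at 1 mm and 1.13, 0.913 and 2.14 CPM in the top part at index 0.8. It changed by -1.93 (SE 0.25) in rosea and -1.06 (SE 0.24) in prostrata. The prostrata call of AT5G26200 was lost without library 3 of the 18 mm bottom or of the 18 mm top part, the value nearest 0 being -0.90.

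The difference between the age changes of the species was itself tested. By the call rule 2 members changed more upward in rosea, 6.45% of the 31 against 4.51% of all loci, and 1 more downward, 3.23% against 6.38%, shares close to the background. AT1G14140 led with 3.08 (SE 0.33, edgeR adjusted p = 9.29e-09), from changes of 3.31 in rosea and 0.23 in prostrata, the latter with a 95% interval of -0.28 to 0.73. AT5G56450 followed with 1.46 (SE 0.25, adjusted p = 3.34e-05). AT1G72820 gave -1.05 (SE 0.22, adjusted p = 4.38e-04). AT1G79900 stood at -1.24 (SE 0.51), with an adjusted p of 0.0699 and no call. It was called under library totals, where the adjusted p was 0.0443. Without the fold threshold 6 members differed upward and 4 downward, 10 of 31, against 25.2% of all loci. Among these PMP38, which delivers NAD to peroxisomes, had a log2 change of 0.38 in prostrata and -0.36 in rosea, a difference of -0.74 (SE 0.13, adjusted p = 5.89e-05).

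**Figure D3:**
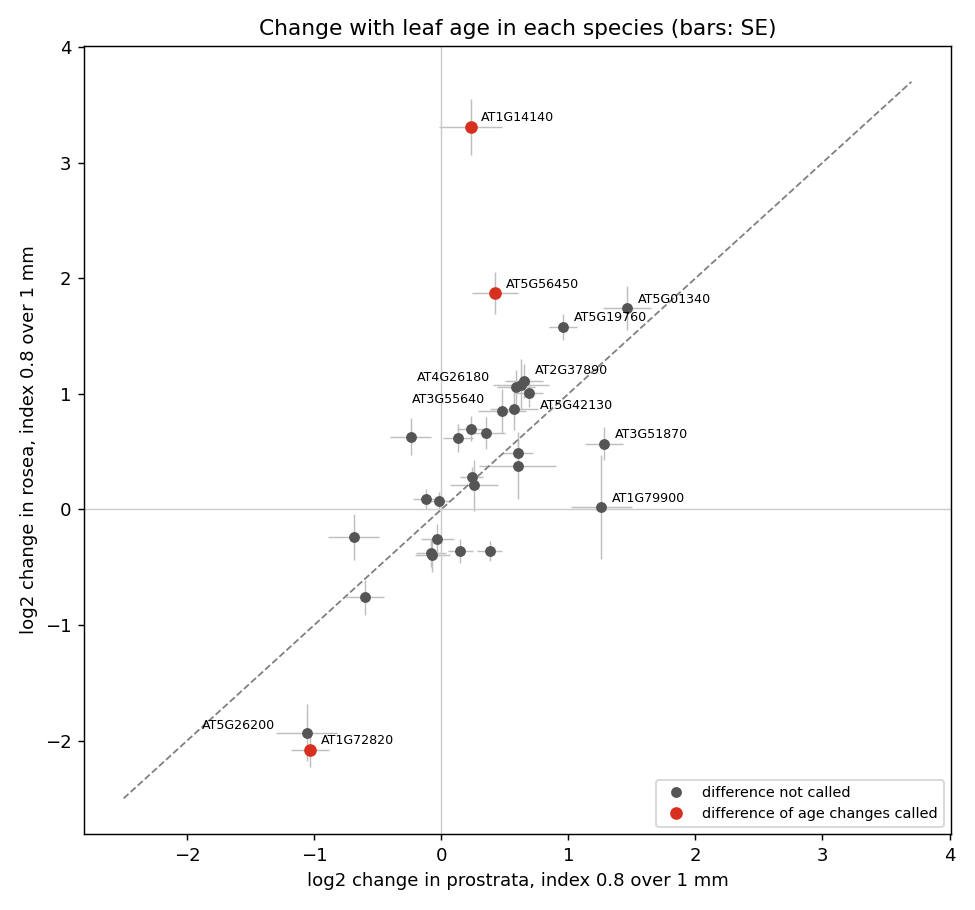
Log2 change from 1 mm leaves to index 0.8 in prostrata (horizontal axis) and rosea (vertical axis) for the 31 tested carrier loci, with bars of 1 SE, a dashed line of equal change and names for loci called in either species. The red points are the loci whose changes differed between species, with AT1G14140 at 0.23 and 3.31.

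Markers of other tissues were read over the same ages. The phloem gene SUC2 went from 10.8 to 14.5 CPM at 1 mm to 23.2 to 76.1 CPM at index 0.8 in prostrata, and from 15.5 to 22.1 CPM to 46.2 to 139 CPM in rosea. The xylem genes XCP1 and XCP2 together went from 30.4 to 35.2 CPM to 80.4 to 123 CPM in prostrata and from 32.9 to 40.2 CPM to 81.5 to 144 CPM in rosea. The meristem genes STM and KNAT1 together dropped from 50.2 to 53.3 CPM to 2.12 to 5.75 CPM in prostrata. In rosea they dropped from 36.5 to 47.7 CPM to between 0 and 0.432 CPM. The epidermal gene GL2 stood at 63.1 to 64.1 CPM at 1 mm and 29.1 to 104 CPM at index 0.8 in prostrata (log2 change 0.21, not called), and fell in rosea from 51.3 to 60.1 CPM to 16.9 to 27.5 CPM (log2 change -1.36). The guard cell gene MYB60 stood at 11.7 to 12.9 CPM at 1 mm and 18.8 to 28.4 CPM at index 0.8 in prostrata, and at 21.1 to 22.7 CPM and 9.81 to 14.4 CPM in rosea. Its species order was thus reversed between these ages, and the difference of its age changes was called at -1.67 (SE 0.22). That difference was also called for KNAT1 (-4.47), RBCS1A (-2.06) and GL2 (-1.56), but not for RCA, SUC2, STM, XCP1 or XCP2. Over stages KNAT1 (-4.13) and GL2 (-1.22) were called lower in rosea. The part of these markers in the carriers' age changes was not tested.

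No carrier was called between the top and bottom leaf parts. The labels do not say which parts came from 1 leaf. The fit treated all parts as independent libraries, here, in the mean over parts at index 0.8 and in the mean over stages. The p-values of those comparisons rest on that treatment. Comparing top with bottom over index 0.3 and 0.8, edgeR called 0 members in prostrata, 0 in rosea and 0 for the difference between species, where 1.22%, 0.582% and 0.115% of all loci were called. Under the adjusted p alone, 1, 3 and 0 members passed, against 14.1%, 4.74% and 0.237% of all loci. At an unadjusted p under 0.05 there were 5 members in prostrata, 15 in rosea and 4 for the difference, against 29.9%, 19.5% and 10.8% of all loci, and DESeq2 called 0 in each. Of those 3, AT5G56450 was higher in the rosea top by 0.59 (SE 0.13, edgeR adjusted p = 0.00802), and AT2G37890 and AT3G55640 were each higher by 0.47. In prostrata AT2G33820 was lower in the top by 0.39 (log2 change -0.39, adjusted p = 0.0231). Without the near-identical prostrata 15 mm libraries the counts of called members in this comparison were again 0.

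**Figure D4:**
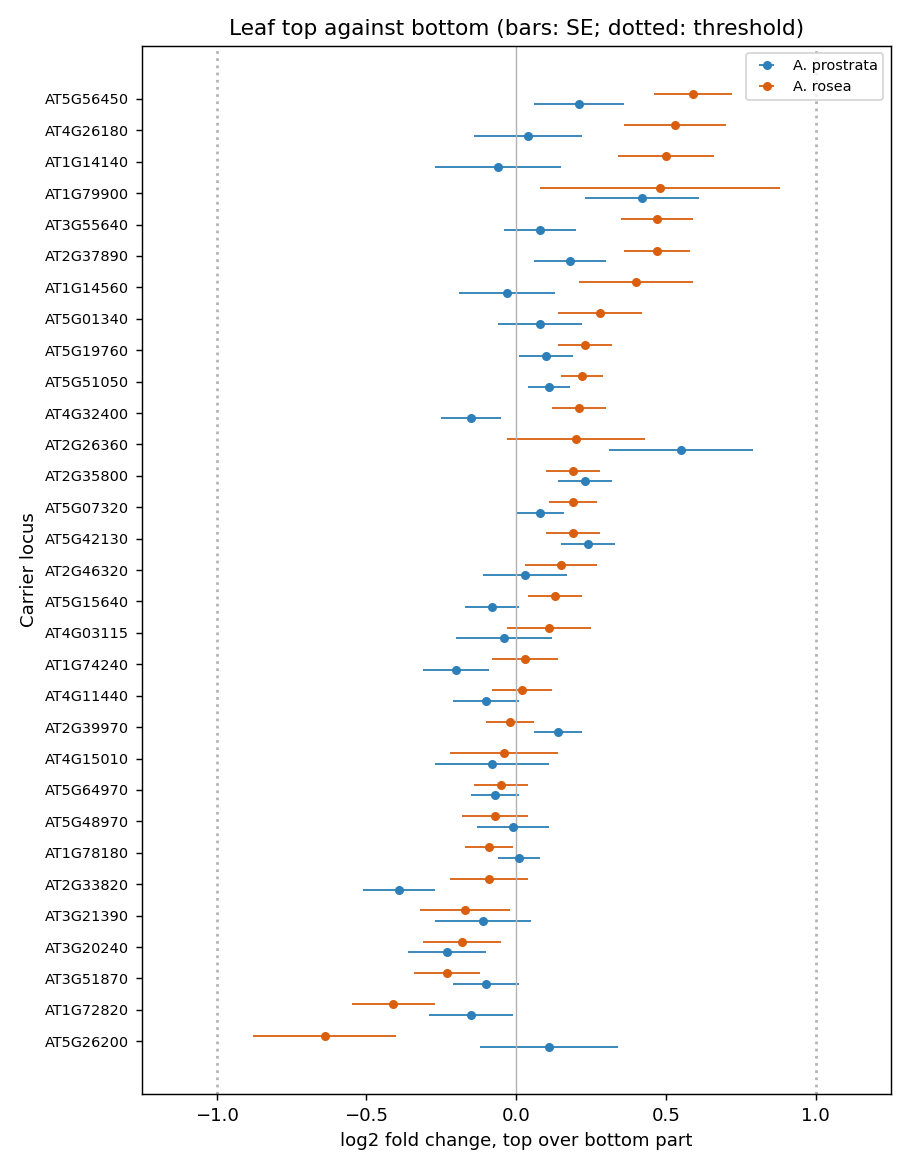
Log2 fold change of the top over the bottom leaf part for the 31 tested carrier loci, averaged over index 0.3 and 0.8, in prostrata (blue) and rosea (orange), with bars of 1 SE and dotted lines at the fold threshold. No point reaches a dotted line, and the rosea points run from -0.64 for AT5G26200 to 0.59 for AT5G56450.

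For comparison, 22 other carriers of the same protein family that carry individual names in the table were tested, of 26 listed. The 22 include BOU and the dicarboxylate carriers UCP5, DIC2 and DIC3, which the rule for the members sets aside. Of the 22, 9 were higher and 0 lower in rosea over stages, beside the 9.61% and 10.3% of all loci given above. Their median log2 difference was 0.69. Whether this list differs from the members or from other loci was not tested. The leading ones were the dicarboxylate carrier UCP5 at 2.79 (SE 0.13), the plant uncoupling protein PUMP1 at 2.60 (SE 0.06) and the dicarboxylate carrier DIC2 at 2.35 (SE 0.13). Some of the 9 are close relatives, so reads of 1 Atriplex gene may be divided between them. With close relatives summed, the 2 uncoupling proteins differed by 2.48 (SE 0.06) and the 3 phosphate carriers by 1.14 (SE 0.07), both calls. For these 2 sums the age change was larger in rosea by 2.62 and 1.51, again calls. UCP5, DIC2 and DIC3 were not summed. With age 4 of the 22 rose and 0 fell in prostrata, 11 rose and 0 fell in rosea, and the change was larger in rosea for 8 by the call rule, where 15.2%, 15.0% and 4.51% of all loci were called in that direction. For those 8, DIC2 stood at 4.54, UCP5 at 4.45 and DIC3 at 4.26, above the 3.08 of AT1G14140. A list of loci for carrier insertion into the inner membrane (small TIM chaperones and Tim22 relatives) had 2 of 6 higher and 0 lower in rosea over stages, with AT3G10110 at 1.24 and AT1G18320 at 1.07. Of 4 loci listed with family UPF0041, known in yeast and animals as the mitochondrial pyruvate carrier, 2 were higher, AT4G05590 by 3.34 and AT4G22310 by 1.03. Depth limits the prostrata side of AT4G05590, which averaged 0.983 CPM there with a lowest library of 0.245 CPM. Porins of the outer membrane, which let metabolites through unselectively, had 0 of 2 called. These short lists are to be read beside the 9.61% of all loci higher and 10.3% lower, and whether they differ was not tested. Division of reads between AT3G10110 and AT1G18320 was not tested either.

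**Figure D5:**
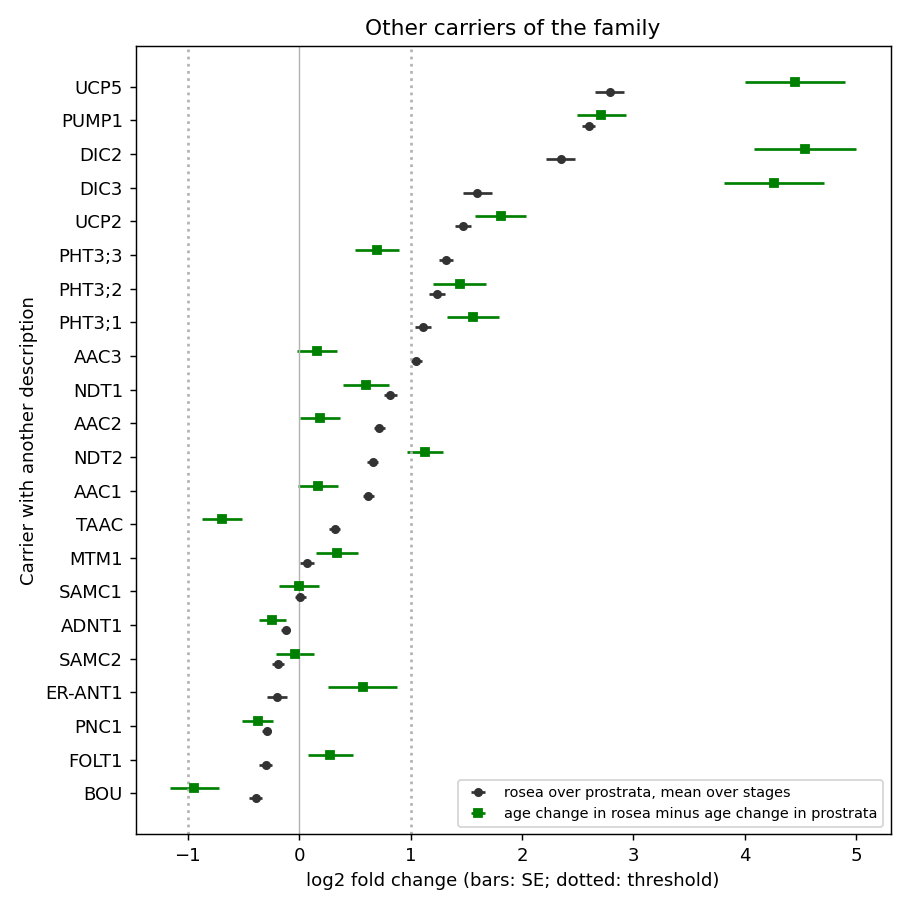
Log2 fold changes for the 22 other carriers tested, with circles for rosea over prostrata averaged over stages, squares for the age change in rosea minus that in prostrata, bars of 1 SE and dotted lines at the fold threshold. UCP5, DIC2 and DIC3 have squares between 4.26 and 4.54, to the right of every other carrier shown.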

How the data were processed

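The authors deposited 1 table with read counts per Arabidopsis locus; CASAVA, DESeq2 and TAIR10 are named in the submitters' processing notes, without roles. Aligner, counter and strand use: not given in the sources used here. Of the 21976 loci, 5 whose cells had moved out of their columns were left out. From 48 count columns matched to labels, 16 groups of 3 were formed; 72 other columns of per-sample values were not used, 12 of them counts. Leaf 9 columns were matched as a group only.

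Raw counts went into edgeR (version 4.0.16, under R version 4.3.3) as 1 mean for each group, TMM factors (0.653 to 1.31), filterByExpr and quasi-likelihood F tests. Benjamini-Hochberg adjustment ran over all 14779 loci tested, and the threshold was an adjusted p of 0.05 with an absolute log2 fold change of 1. All 48 libraries shared the spread estimate (biological coefficient of variation 15.7%, 32 residual degrees of freedom). SE was the log2 fold change divided by the root of F, and 95% intervals used the t distribution. Counting depth limits loci with few counts.

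Alternatives were library totals, RLE, no low-count filter, DESeq2 1.42.0, no fold threshold, a replicate block, single stages alone, libraries left out and paralogs summed; leaving out leaf 9 without the block was added after the data were seen. Members, lists and tests were chosen with earlier results of these data known. By rule, statistics are given for members called over stages or in a difference between species (up to 5 per direction), values for the 3 largest differences per direction and the 3 highest levels, and up to 3 per direction in each comparison list.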

Additional observations from a re-analysis of the deposited data

Results flagged for a closer look

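For 3 carriers the change from 1 mm leaves to index 0.8 differed between the species by the interaction test (edgeR, adjusted over all loci). AT1G14140 changed more upward in rosea by 3.08 on the log2 scale, and every one of its 6 rosea libraries at index 0.8 exceeded its 3 rosea libraries at 1 mm. AT5G56450 changed more upward in rosea by 1.46. AT1G72820 gave -1.05, a steeper fall in rosea, and this call was lost without any 1 of 4 libraries (prostrata 18 mm top library 1, rosea 1 mm library 1, rosea 13 mm bottom library 3, rosea 13 mm top library 1), where the smallest value in size was -0.94.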

How the results depend on the processing

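The species calls over stages of AT1G14140 (2.98 to 3.08), AT5G01340 (1.12 to 1.20), AT1G14560 (-1.14 to -1.05) and AT1G79900 (-4.57 to -4.47) kept direction and side of the threshold in all 48 fits that left out 1 library. Without a fold threshold the members higher and lower were 18 and 7 over stages, 8 and 5 at 1 mm, 13 and 5 at 5 mm, 16 and 6 in leaf 9, 13 and 5 in leaf 10, 12 and 6 in the bottom and 14 and 5 in the top at index 0.3, 13 and 7 in the bottom and 13 and 8 in the top at index 0.8, 15 and 4 with age in prostrata, 17 and 7 with age in rosea, 6 and 4 for the difference of age changes, 1 lower in the prostrata top and 3 higher in the rosea top. With library totals the members lower were 4 over stages, 3 in leaf 9, 3 in leaf 10, 5 in the top at index 0.3 and 5 in the bottom at index 0.8, with 1 higher in each of the last pair; age gave 0 and 4 in prostrata and 3 and 7 in rosea, and the difference of age changes had 2 lower. RLE and DESeq2 each gave 1 higher at 1 mm and 1 lower at 5 mm, and DESeq2 gave 2 lower for the difference of age changes. Members lower at 5 mm were also 1 with no low-count filter, with only the 6 libraries compared and without the 2 similar 15 mm libraries, and in the index 0.3 top they were 2, 2 and 3. Without those 15 mm libraries 1 member fell with age in prostrata. In the index 0.8 top AT1G14560 alone stood at -1.02, and its sum with AT4G26180 stood at 0.02. There AT1G14560 averaged 9.13 CPM in prostrata and 4.49 CPM in rosea, and AT4G26180 averaged 11.8 and 16.8 CPM. The sum is a value of the pair, not of AT1G14560.

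Leaving out 1 library at a time gave 0 to 2 members higher at 1 mm, 1 to 2 lower at 5 mm, 1 to 2 lower in leaf 9, 3 to 5 higher and 1 to 2 lower in leaf 10, 1 to 2 higher in the index 0.3 bottom, 1 to 3 lower in the index 0.3 top, 1 to 3 higher and 3 to 5 lower in the index 0.8 bottom, 2 to 4 lower in the index 0.8 top, 0 to 2 falling with age in prostrata and 0 to 2 lower for the difference of age changes. Those were the larger moves, and smaller ones also occurred. Members rising with age were 6 to 8 in rosea and 3 to 4 in prostrata. Members higher were 3 to 4 in leaf 9, 3 to 5 in the index 0.3 top and 2 to 3 in the index 0.8 top. Members lower were 2 to 3 at 1 mm and 2 to 3 in the index 0.3 bottom. AT1G14560 at 5 mm (-1.47 to -0.79) was lost in 30 of 48 fits. Deviations of same-numbered libraries correlated from -0.19 to 0.11 between species (9 of 21 best with their own number), from -0.44 to 0.40 between bottom and top of 1 length (8 of 12) and from -0.57 to 0.48 between other stages of 1 species (66 of 114). Since not every pair exceeded 0.1, the numbers were not taken to pair the libraries, and the own-number counts within a species are a hint from the data, not the design. A replicate block, fitted without leaf 9, left the calls over stages at 2 higher and 2 lower and changed none of the 28 counts of members. Counts at Arabidopsis loci, shared reads between paralogs and the 10 to 34 counts of AT1G79900 per rosea stage limit the values.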
